A study of Mus musculus with 80 samples.

Results

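Mouse embryonic stem cells (ESCs) lose most of their DNA methylation when they are moved from serum to 2i. The windows described here are those with the highest methylation left in 2i among the autosomal windows tested. The autosomes were divided into windows of 10 kb, and the windows were chosen by their methylation in the input DNA of cells in 2i. A window was kept if it held 20 or more calls in each of 8 libraries and if the mean level of the 2 input 2i libraries was 55% or more. A call is 1 read of 1 CpG cytosine, and positions with over 20 calls, where reads pile up, had been removed library by library. This gave 5562 windows of 175496 tested (3.17%), out of 238772 autosomal windows with any call. They are called high-2i windows below, and the 169934 remaining tested windows are called other windows.

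Serum medium with LIF keeps ESCs in a state with highly methylated DNA. In 2i, cells grow without serum in N2B27 medium with LIF, and PD0325901 blocks MEK while CHIR99021 blocks GSK3. DNA methylation at CpG sites is copied after replication by DNMT1, which UHRF1 brings to the newly made strand. UHRF1 can bind both hemimethylated CpGs and histone H3 methylated at lysine 9, and dimethylation of that lysine (H3K9me2) marks broad, mostly silent domains. TET enzymes oxidise methylated cytosine, a step towards its removal. Some sequences, among them certain retrotransposons and imprinted regions, are known to keep methylation when the rest of the genome loses it.

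The levels came from ChIP-BS, in which wild-type E14 chromatin was precipitated with an H3K9me2 antibody and the bound DNA was sequenced after bisulfite treatment, beside input DNA of the same kind of cells. Bound and input fractions were read in serum and in 2i, with 2 libraries each. The study describes its 2i cells of this assay as long-term 2i cultures, so their levels are not those of a time point in the RRBS course. An independent readout came from reduced representation bisulfite sequencing (RRBS) of CpG-rich fragments, in 50 usable samples of 5 lines. E14 (wild type) was sampled in serum and after 24, 48, 72, 96 and 168 h in 2i. UHRF1 WT and UHRF1 KO (genotype UHRF1-/-, E14 background) were sampled at the same times (24 to 168 h) and in serum. The study's methods give a tamoxifen-inducible Cre for its floxed lines, induced before the experiment, and the labels give all KO samples, those in serum included, the deleted genotype. TET WT and TET TKO (genotype TET1/2/3-/-, background C57/129/FVB) were sampled in serum and after 48, 96 and 168 h. Each group had 2 samples, except UHRF1 WT serum with 1 usable sample and TET WT at 168 h with 1. The sources used here do not say for these libraries whether the replicates were separate cultures, so p-values measure only the spread between these samples, which may be technical.

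The ChIP-BS libraries held 17325308 to 25246767 calls. The high-2i windows had a median of 83 calls in input 2i replicate 1 and 73 in replicate 2. At 83 calls a level of 55.4% has a 95% Wilson interval of 44.7% to 65.6%, which covers counting error only. A single window near the threshold is therefore not resolved from its neighbours in level, and the results below rest on many windows. The genome build of the bisulfite files was NCBIM37. Gene names and sequence are not given for the windows, because no annotation or genome of that build was used here.

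The high-2i windows also lost methylation in 2i, but less than the other windows. In the input DNA, whose 2i values chose them, their median level was 84.0% and 83.1% in the 2 serum libraries and 60% and 60.7% in the 2 libraries of 2i. In the other windows the medians were 76.7% and 75.6% in serum and 33.3% in both 2i libraries. The bound libraries played no part in the choice. In them the high-2i windows had medians of 86.0% and 85.7% in serum and 55.97% and 56.2% in 2i. The other windows stood at 81.8% in both bound serum libraries and at 39.2% and 39.0% in bound 2i. In bound DNA the high-2i windows thus kept 65.3% of their serum level and the other windows 47.8%.

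**Figure D1:**
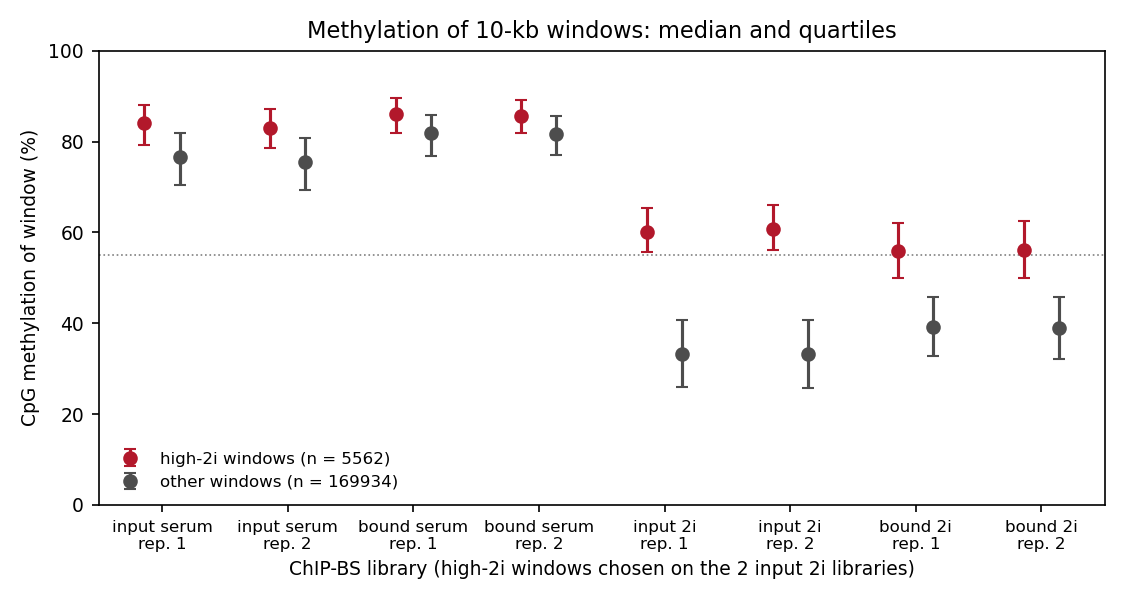
The plot gives CpG methylation in percent for each of the 8 ChIP-BS libraries, with the median (point) and quartiles (bars) over 5562 high-2i windows in red and 169934 other windows in grey; the dotted line marks 55%. In both bound 2i libraries, whose levels were not used in the choice, the red medians lie near 56% and the grey medians near 39%.

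The gap between the 2 sets in bound 2i DNA was 17.0 points (56.1% ± 0.156 against 39.1% ± 0.164, SD of library medians, n = 2), far above the difference between replicates. Of the 5562 high-2i windows, 5493 (98.8%) had a bound 2i mean above the median of the other windows. A level of 55% or more in both bound 2i libraries was found in 2191 of them (39.4%), beside 2.85% of all windows tested. In neither bound library was 55% reached by 1601 high-2i windows (28.8%).

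Part of the input level comes from choosing on it. Chosen on input 2i replicate 1 alone, 7658 windows passed, of which 4348 (56.8%) were high-2i windows, and their median in input 2i replicate 2 was 52.8%. Chosen on replicate 2 alone, 8326 windows passed, of which 4483 (53.8%) were high-2i windows, with a median of 51.6% in replicate 1. In the windows chosen on 1 library, bound DNA lay above the input library that was not used by a median of 0.929 points for the first choice and 1.45 points for the second. In the other windows bound DNA was higher than the same input libraries by 5.74 and 5.81 points. In windows chosen on 1 library, bound and unused input DNA were thus closer than in the other windows. In the 5562 high-2i windows themselves bound 2i minus input 2i was -4.26 points, beside 5.77 points in the others, with the input values that chose them.

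The level was graded within the set. The 3024 windows of 55% to 60% in 2i input had a bound 2i level of 53.5% ± 0.193. The 2092 windows of 60% to 70% had 58.6% ± 0.259, and the 446 windows of 70% or more had 65.4% ± 0.352 (SD of library medians, n = 2 each). In the same order, bound serum levels were 85.3%, 86.2% and 87.9%. The windows of 70% or more thus kept 74.4% of their bound serum level. Nothing steps at the threshold: the 782 windows of 55% to 56% had 52.5% in bound 2i, and the 969 windows of 54% to 55% had 52.0%. The 3 windows just inside, all at 55.0%, read 50.0% and 49.3%, 63.2% and 61.6%, and 44.2% and 46.2% in bound 2i. The 3 just outside, at 54.99%, read 50.6% and 40.4%, 51.0% and 50.0%, and 64.0% and 50.3%.

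Most high-2i windows were already highly methylated in serum. A serum input mean of 80% or more was found in 4112 of them (73.9%) and in 46511 other windows (27.4%). Only 5 had a serum input mean under 55%. The share of high-2i windows rose with the serum level. It was 0.113% among windows under 60% in serum input, 1.54% from 70% to 80%, 7.55% from 80% to 90% and 28.7% among the 1369 windows of 90% or more. The gap was also present between windows of the same serum level. Among windows of 80% to 90% in serum input, bound 2i medians were 56.8% and 57.0% in high-2i windows and 43.8% and 43.6% in the others.

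The change between media was tested window by window on the methylated and unmethylated counts of all 8 libraries, with a quasi-binomial fit and Benjamini-Hochberg adjustment over all windows. A fall of 20 points or more in bound DNA from serum to 2i at an adjusted p under 0.05 was called in 98.7% of all windows tested. It was called in 4804 of the 5562 high-2i windows (86.4%), with a median change of -29.2 points (quartiles -34.3 and -23.6), beside -41.7 points in the other windows. With no minimum difference, 97.2% of the high-2i windows fell, beside 99.6% of all windows. A difference above 0 was found in 5 high-2i windows, and the quasi-binomial fit called 0 of them as a rise. Over all 175496 windows tested it called 1 rise (0.00057%).

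H3K9me2 was not enriched at these windows in serum. The H3K9me2-bound share of a window is the bound depth divided by bound plus mean input depth, each scaled to the calls of its library, so that 50% means no enrichment over input. In serum the median share of high-2i windows was 44.4% and 44.9% in the 2 bound libraries, against 54.2% in both for the other windows. In 2i it was 52.8% and 52.5%, against 54.6% and 54.7%. In serum, 1811 high-2i windows (32.6%) had a mean share over 50%, beside 116725 of the other windows (68.7%). The share rose from serum to 2i in 4383 high-2i windows (78.8%), by a median of 7.76 points (quartiles 1.34 and 13.5). In the other windows it rose in 49.6%, with a median of -0.095. These shares are relative within a library, and a fall of H3K9me2 over the whole genome cannot be seen in them.

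The windows with the highest 2i level had the lowest bound share. From 55% to 60%, 60% to 70% and 70% or more in 2i input, the serum share was 47.9%, 41.7% and 36.1%, and the 2i share was 54.9%, 50.7% and 44.4%. Of the high-2i windows, 1997 (35.9%) were among the 17550 windows of lowest serum share, and 316 (5.68%) were among the same number of highest share. In 2i these counts were 392 (7.05%) and 461 (8.29%). High-2i windows made up 11.4% of the 17550 windows of lowest serum share and 1.80% of those of highest. In 2i they made up 2.23% and 2.63%, beside 3.17% of all windows tested. The set thus did not lean to the lowest share in 2i. Among high-2i windows in 2i, the 1854 windows of highest bound share (median 62.7%) had bound methylation of 53.9% and 54.5%. The 1854 of lowest share (median 40.6%) had 58.6% and 58.6%.

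The number of CpGs differed as well. High-2i windows held a median of 127 CpG positions with calls (quartiles 97 and 160) and the other windows 97 (73 and 127). The windows were therefore split into 5 classes by this number. High-2i windows made up 1.08% of the class with the fewest positions (7 to 69) and 6.73% of the class with the most (138 to 1187). In serum their share was lower than that of other windows in all 5 classes and both libraries, with differences of -11.5 to -8.11 points. In 2i the order depended on the class. In the class of 88 to 109 positions high-2i windows differed by -3.33 and -3.44 points, and in the class with the most positions they were higher by 2.41 and 3.02 points.

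**Figure D2:**
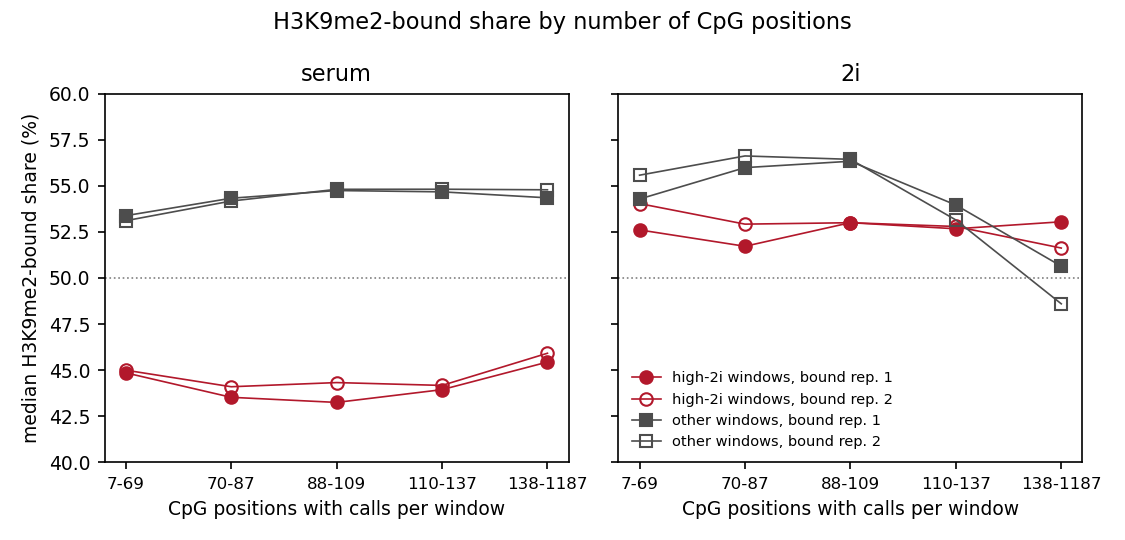
Median H3K9me2-bound share in percent, on an axis from 40% to 60%, by class of CpG positions per window, in serum (left) and 2i (right), with 1 line per bound library. In serum the red lines of high-2i windows lie between 43.2% and 45.9% and the grey lines of other windows between 53.1% and 54.8%, while in 2i the lines cross.

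In serum, bound DNA was in general more methylated than input DNA at the same place. The median difference of bound minus input, from the pooled counts of each window, was 2.35 points in high-2i windows (quartiles -1.51 and 6.16) and 5.36 points in the others. In the same fit, bound DNA was called higher than input in 2.8% of all windows (4912) and in 53 high-2i windows (0.953%). It was called lower in 0.00912% of all windows (16 windows), of which 6 were high-2i windows (0.108%). A smaller share of high-2i windows than of all windows was thus called higher. Their median serum input level was 83.5%, against 76.1% in the others, and the part of that level was not tested. Without bound serum replicate 1, the share of high-2i windows called in either direction fell from 1.06% to 0.252%, and that of all windows from 2.81% to 0.885%. Without bound serum replicate 2 these shares were 0.27% and 0.695%, and without input serum replicate 2 they were 0.324% and 1.04%.

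The high-2i windows were spread over all 19 autosomes. They made up between 2.18% of tested windows on chromosome 8 and 4.26% on chromosome 13. Chromosome 1 held the most in number, 523. Of 1927 stretches of 1 Mb with 50 or more tested windows, 380 held no high-2i window, and the median stretch had 2.17%. At the other end, 86 stretches had 10% or more and together held 965 high-2i windows. The densest was chr9:3000001-4000000, where 28 of 93 tested windows (30.1%) were high-2i windows. It was followed by chr4:61000001-62000000 (14 of 55) and chr2:177000001-178000000 (15 of 59).

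Mouse chromosomes have the centromere at their start. In the first Mb from the first covered window of each chromosome, 137 of 1303 tested windows (10.5%) were high-2i windows. The share was 7.45% in the next Mb, 5.24% from 2 to 5 Mb and 2.81% beyond 50 Mb. At the other end of the chromosomes it was 4.12% in the last Mb. Depth moved with membership too. The share of high-2i windows was 2.72% where the library with the fewest calls held 20 to 30 calls and 15.8% among the 425 windows with 150 or more calls in every library. Bound 2i medians were 55.2% and 54.5% in the shallowest class and 60.2% and 60.4% in the deepest. Windows with a removed pile-up position were equally frequent in both sets, 2.03% each. The part of extra copies or poorly mapped sequence in the high levels was not tested.

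Most high-2i windows had no tested high-2i window directly beside them. They formed 4847 runs of adjacent windows, of which 4272 were single windows. A run ends at an untested window or at any level under 55%, so low depth and counting error can cut runs. The 575 runs of 2 or more held 1290 windows (23.2%), and 6 runs were of 5 or more. The surroundings were nevertheless more methylated than the genome. Of the tested windows directly next to a high-2i window, 14.5% were high-2i windows themselves, against 3.17% of all. At 100 kb this share was 6.23% and at 1000 kb 3.62%. Windows that were not high-2i windows had bound 2i medians of 44.1% and 43.8% when next to one, 41.7% and 41.4% at 100 kb, and 40% and 39.8% at 1000 kb. The serum H3K9me2-bound share of the same windows, those outside the set, was 51.4% next to a high-2i window, 52.8% at 100 kb and 53.6% at 1000 kb. In 2i their share went the other way, with 55.6%, 54.7% and 54.8% at these distances.

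**Figure D3:**
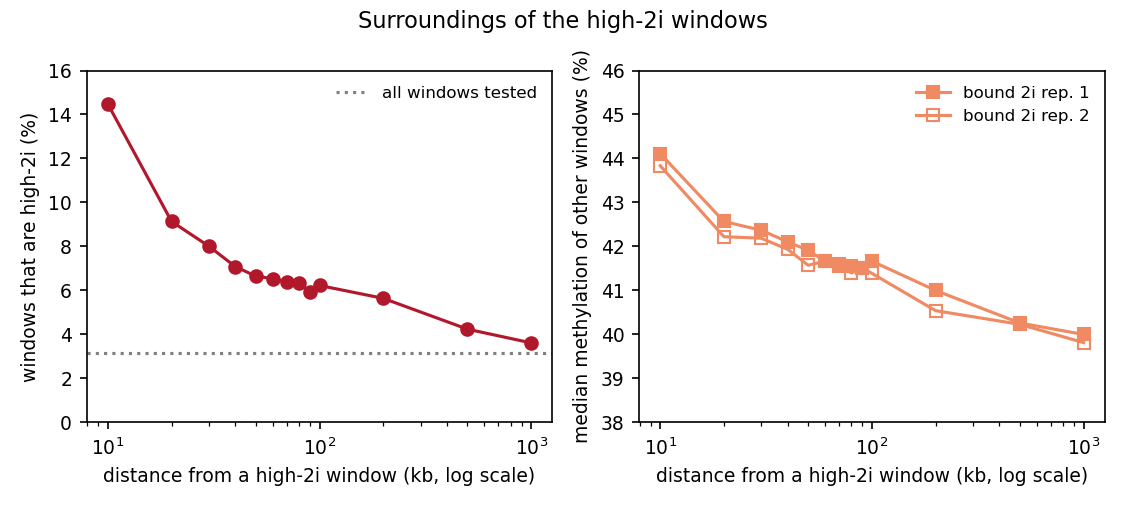
Against the distance from a high-2i window (kb, log scale), the left panel gives the percent of tested windows that are high-2i windows, with the 3.17% of all windows as a dotted line, and the right panel the median bound 2i methylation of the windows that are not, on an axis from 38% to 46%. Both fall with distance, from 14.5% to 3.62% and from about 44% to about 40%.

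The longest run covered chr10:82840001-82920000, 8 windows with 1440 CpG positions. Its input levels, from the calls of the whole run, were 89.97% and 89.8% in serum and 70.4% and 72.9% in 2i. Its bound levels were 86.9% and 89.7% in serum and 67.1% and 65.6% in 2i, from 445 or more calls in each library. Over its 80 kb as a whole the bound 2i values, outside the choice, were thus above 65%. Its single windows ranged from 49.3% to 82.2% in bound 2i replicate 1 and from 50.9% to 71.6% in replicate 2. The 22 tested windows within 200 kb on either side had bound 2i medians of 46.4% and 46.9%. Other high-2i windows were among these 22. Past an untested window on the right, the next tested window read 83.7% and 70.9% in input 2i. The H3K9me2-bound share of the run was 38.9% in serum and 32.8% in 2i.

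**Figure D4:**
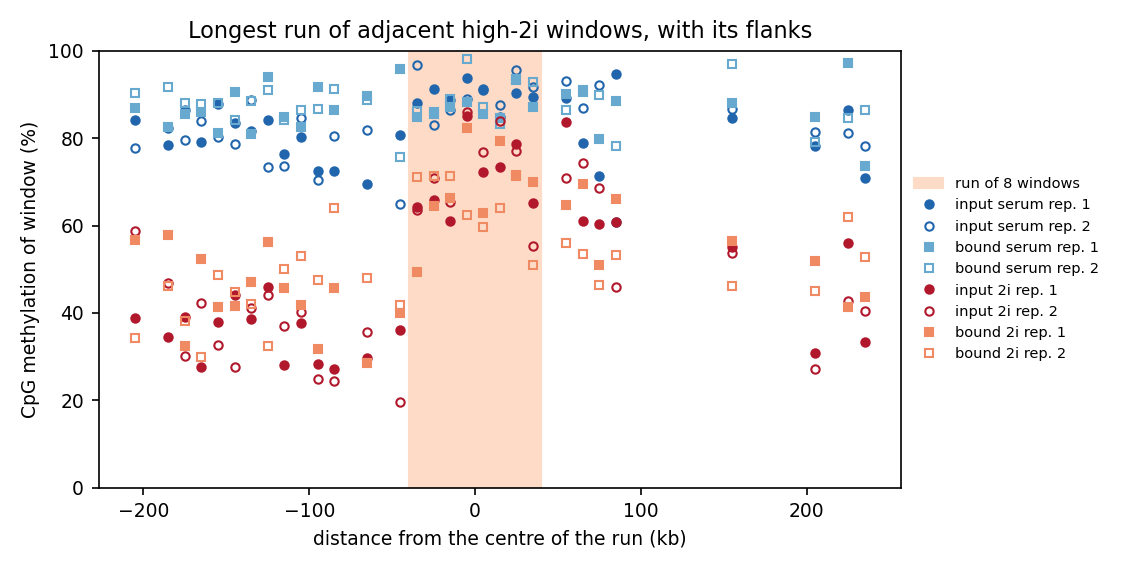
CpG methylation in percent of single 10-kb windows against the distance in kb from the centre of the longest run (shaded), with 1 colour per fraction and medium, filled symbols for replicate 1 and open symbols for replicate 2; gaps are windows with too few calls. The red and orange 2i symbols rise from the flank on the left into the run, where bound 2i reaches 65.6% and 67.1% over all calls, and stay high in the first tested windows to the right.

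A pair of runs had 6 windows. The run chr3:22130001-22190000 had bound 2i levels of 61.3% and 61.4%, with flanks at 47.9% and 47.2%. The run chr13:22830001-22890000 had bound 2i levels of 58.0% and 52.9%, with flanks at 52.6% and 51.6%. The flanks of both runs are all tested windows within 200 kb and include other high-2i windows. Against flanks of this kind, the last run did not stand higher in bound replicate 2 by more than its replicates differed. Its 2 input 2i libraries also differed, at 56.1% and 69.3%.

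Single windows were ranked among the 2961 with 50 or more calls in all libraries. The highest 2i input mean, 83.4%, was at chr13:93390001-93400000. Its input levels were 92.4% and 88.9% in serum and 91.5% and 75.4% in 2i. Its bound levels were 91.9% and 89.6% in serum and 77.8% and 70.9% in 2i. This window kept most of its serum level in the 2 bound 2i libraries as well, from 62 to 90 calls per library. Next came chr7:50140001-50150000, with bound 2i levels of 83.1% and 73.2%. It was followed by chr8:63480001-63490000 (74.3% and 68.7%), chr9:12130001-12140000 (70.2% and 67.1%) and chr13:5190001-5200000 (78.3% and 80.6%). All 5 had serum H3K9me2-bound shares under 50% in both libraries.

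Some high-2i windows had low bound 2i levels, while their input 2i mean was 55% or more by the choice. Among the same 2961 windows, the lowest bound 2i level was at chr6:107080001-107090000, with 30% and 32.4% in bound DNA and 67.8% and 48.6% in the 2 inputs. It was followed by chr15:31680001-31690000 (41.7% and 28.1% bound, 62.3% and 63.2% input) and chr5:68890001-68900000 (42.3% and 29.4% bound, 55.4% and 56.6% input). In all 3 windows both bound 2i values lay below both inputs, an order favoured by the choice on input and the ranking on bound level. These windows are the extremes of a ranking, and the differences were not tested on their own.

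Tiles of the RRBS data, 500 bp long, gave the independent view of the same windows. A tile needed at least 20 calls at 3 CpG positions or more, in each sample of its set. In E14, 18003 of 55777 tiles lay in tested windows, and 1061 tiles lay in 913 high-2i windows. A tile of 40% or more in serum counts as methylated below. Of the tiles in high-2i windows, 994 (93.7%) were methylated in this sense, beside 54.9% of the tiles in other windows. Levels under 10% in serum, typical of CpG islands, were found in 41 high-2i tiles (3.86%) and in 35.9% of the others. Several tiles can lie in 1 window, and tiles are not replicates of a condition.

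Methylated E14 tiles in high-2i windows stayed well above the rest in the time course. The mean of the 994 tiles was 86.9% and 87.4% in the 2 serum samples, 87.0% and 85.8% after 24 h, 83.6% and 83.3% after 48 h, 76.4% and 76.2% after 72 h, 77.4% and 77.5% after 96 h, and 66.9% and 66.9% after 168 h. The 9296 tiles of other windows went from 79.1% and 79.5% in serum to 41.4% and 41.9% after 168 h. High-2i tiles thus changed by -20.3 ± 0.312 points and the others by -37.7 ± 0.502 (SD, n = 2 per group). The gap between the 2 sets was 7.88 points in serum. It was 5.61 points after 24 h, 11.4 after 48 h, 15.8 after 72 h, 17.1 after 96 h and 25.2 after 168 h, with SDs of 0.0188 to 0.491. From 48 h on, every value of the gap was above those in serum. At 168 h the high-2i tiles stood at 76.7% of their serum level and the others at 52.5%. Over all tiles, unmethylated ones included, the gap grew by 3.47 points from serum to 168 h, in place of 17.4.

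The fit over all E14 tiles called a fall of 20 points or more from serum to 168 h in 38.8% of all tiles and in 396 of the 1061 high-2i tiles (37.3%). Without a minimum difference these shares were 60.6% and 78.3%, so their order depended on the setting. The background of all tiles holds many unmethylated ones. Among tiles of 40% or more in serum, a fall of 20 points or more was called in 90.4%. It was called in 391 of 994 high-2i tiles (39.3%) and in 8155 of 9296 tiles of other windows (87.7%). The median change was -16.3 points in high-2i tiles and -37.8 points in the others. Nearly all high-2i tiles still moved down (983 of 994). A tile that kept 80% or more of its serum level at 168 h is called resistant. Of the high-2i tiles 547 (55.0%) were resistant, beside 6.9% of all methylated tiles.

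The RRBS level at 168 h followed the ChIP-BS level of the window. Methylated tiles of windows under 30% in 2i input kept 46.6% of their serum level. The value was 49.8% for windows of 30% to 40%, 56.01% for 40% to 50%, 63.8% for 50% to 55%, 71.0% for 55% to 60%, 79.9% for 60% to 70% and 85.9% for 70% or more. In the last class 96 of 121 tiles (79.3%) were resistant. The same order was present between tiles of like serum level. Among tiles of 90% to 100% in serum, the 587 high-2i tiles stood at 76.8% and 76.9% at 168 h and the 2647 others at 59.6% and 60.5%. Among tiles of 40% to 60% in serum the values were 31.3% and 31.0% for 51 high-2i tiles, and 18.5% and 18.6% for 1352 others.

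Single tiles spanned the whole range. The highest tile at 168 h was chr10:82878001-82878500, inside the longest run. It read 97.2% and 97.5% in serum, 96.1% and 89.2% at 72 h, and 98.4% and 96.4% at 168 h, and the change did not pass the test (adjusted p = 0.82, quasi-binomial fit). The next were chr17:65818001-65818500, with 100% and 94.4% at 168 h, and chr4:53308001-53308500, with 95.3% and 96.4%. At the other end, chr13:3221001-3221500 lay in a high-2i window of 62.7% but fell from 64.9% and 61.2% to 5.56% and 7.34% (adjusted p = 4.56e-07). The tiles chr14:121782001-121782500 (5.00% and 7.94% at 168 h) and chr2:11021501-11022000 (5.66% and 10.3%) were also nearly unmethylated at 168 h. High methylation of a window therefore did not extend to every CpG-rich tile in it. At 168 h, 25 of the 994 tiles (2.52%) were under 20%, beside 1654 of 9296 tiles of other windows (17.8%). The tiles named here are the extremes of a ranking on the 168 h samples. That choice favours a large fall or none in the comparison with serum.

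The tiles were much lower in UHRF1 KO than in UHRF1 WT. In the UHRF1 lines 128 tiles lay in 112 high-2i windows, and 87 of them, in 84 windows, were methylated in UHRF1 WT serum. In UHRF1 WT their mean was 91.4% in the single serum sample, 89.3% and 89.6% after 24 h, 87.8% and 88.0% after 48 h, 84.7% and 86.2% after 72 h, 80.2% and 79.96% after 96 h, and 72.6% and 71.2% after 168 h. In UHRF1 KO it was 88.5% and 89.8% in serum, 77.3% and 77.0% after 24 h, 67.8% and 67.9% after 48 h, 58.3% and 59.1% after 72 h, 51.6% and 47.5% after 96 h, and 55.4% and 53.0% after 168 h. All KO samples were below all WT samples at each of the 6 times. Tiles here and in other windows had to be at 40% or more in the single WT serum sample. That choice favours WT in serum. The difference of KO minus WT was -2.21 points in serum. It was -12.3 points after 24 h, -20.01 after 48 h, -26.7 after 72 h, -30.5 after 96 h and -17.7 after 168 h. Methylated tiles of other windows were lower in KO as well up to 96 h. Their means in KO and WT were 74.4% and 82.7% in serum, 60.5% and 78.2% after 24 h, and 48.7% and 74.7% after 48 h. They were 39.4% and 66.4% after 72 h, 33.2% and 56.7% after 96 h, and 39.7% in both after 168 h.

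The gap between high-2i tiles and other tiles grew from serum to 168 h in UHRF1 WT. In UHRF1 KO it rose up to 72 h and was back near its serum value after 168 h. In WT the gap between the 87 high-2i tiles and the 639 methylated tiles of other windows was 8.68 points in serum. It was 11.3 points after 24 h, 13.2 after 48 h, 18.99 after 72 h, 23.3 ± 0.163 after 96 h and 32.2 ± 0.162 after 168 h. In KO it was 14.8 ± 0.354 points in serum, 16.7 after 24 h, 19.2 after 48 h, 19.3 ± 1.33 after 72 h, 16.4 ± 2.73 after 96 h and 14.5 ± 1.84 after 168 h (SD, n = 2). The gap was larger in all KO samples than in all WT samples in serum and after 24 and 48 h, overlapped after 72 h, and was smaller in all KO samples after 96 and 168 h. From serum to 168 h the high-2i tiles of the KO changed by -35.0 ± 1.96 points and the others by -34.7 ± 0.57. In WT the changes were -19.5 and -43.1 points. Both sets of tiles were higher in KO after 168 h (54.2% and 39.7%) than after 96 h (49.6% and 33.2%). As a share of their own serum level, high-2i tiles stood at 78.6% in WT and 60.8% in KO at 168 h, and the other tiles at 47.9% and 53.3%.

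**Figure D5:**
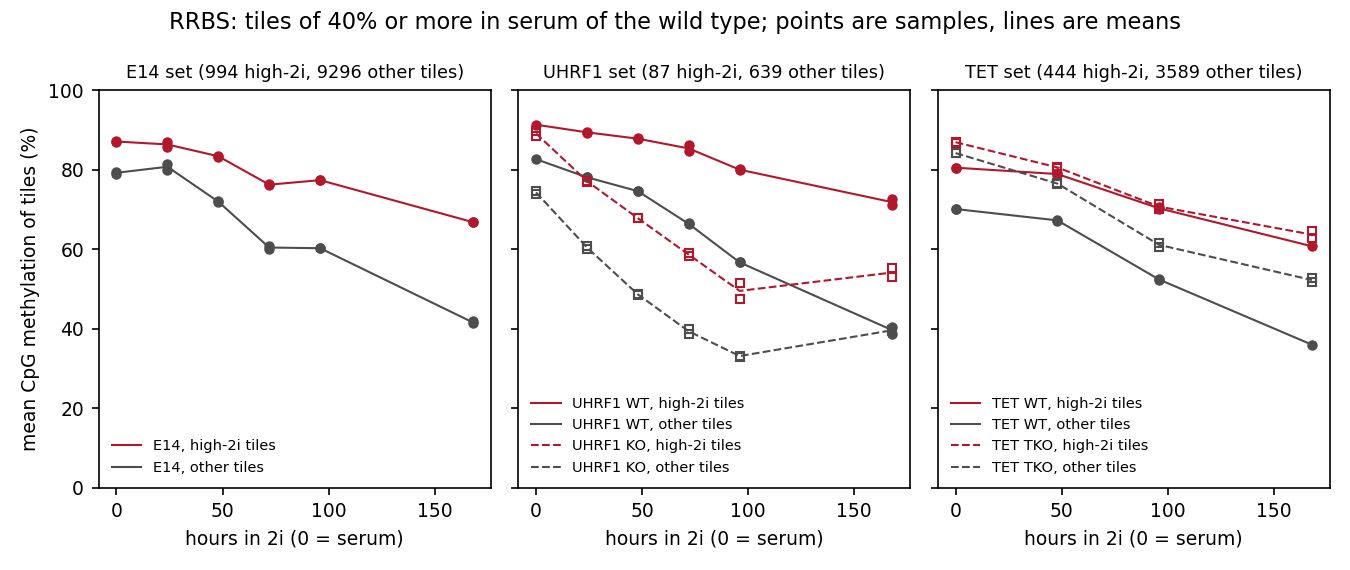
Mean CpG methylation in percent of tiles that were at 40% or more in serum of the wild type of each set, against hours in 2i (0 is serum); red stands for tiles in high-2i windows and grey for tiles in other windows, filled circles and full lines for wild type, open squares and dashed lines for the mutant, with 1 symbol per sample and lines through the means. In the UHRF1 panel the dashed red line falls to 49.6% at 96 h while the full red line is at 80.1%, and in the TET panel the 2 red lines lie close together.

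Tile by tile, the quasi-binomial fit over 22700 tiles called KO lower than WT by 20 points or more at 96 h in 5.19% of all tiles and in 77 of 128 high-2i tiles (60.2%). Among methylated tiles the background was 56.8%, and 76 of 87 high-2i tiles (87.4%) passed against 383 of 639 tiles of other windows (59.9%). With 50 or more calls per tile, the call at 96 h was made in 5 of 25 high-2i tiles (20%), beside 0.517% of all tiles. At 168 h the call was made in 0.3% of all tiles and 24 of 128 high-2i tiles (18.8%). Among methylated tiles it was made in 3.21%, in 24 of 87 high-2i tiles (27.6%) and in 30 of 639 others (4.69%). The median difference at 168 h was -20.7 points in high-2i tiles and 0.97 points in the others. Calls of KO higher by 20 points or more were made at 168 h in 2 high-2i tiles (1.56%), beside 0.449% of all tiles, and at 96 h in 0 high-2i tiles, beside 0.0308%. At 168 h the share called fell to 1.56% without UHRF1 WT replicate 1 (0.0529% of all tiles), to 3.91% without UHRF1 KO replicate 2 (0.0661%) and to 10.2% without UHRF1 WT replicate 2 (0.176%). The calls also rest on the spread shared by all samples of the set: with only the 4 samples compared, no tile passed the adjusted threshold, while 32 high-2i tiles (25%) passed at an unadjusted p under 0.05, beside 0.436% of all tiles. At 96 h, again with 0 tiles past the adjusted threshold, 73 high-2i tiles (57.0%) passed unadjusted, beside 4.69% of all tiles. Limma on log2 ratios called fewer high-2i tiles, 3.12% at 168 h and 10.2% at 96 h, beside 0.0441% and 0.555% of all tiles. These alternatives are given only beside all tiles, which include many unmethylated ones. Levels under 10% in serum were found in 22.7% of high-2i tiles and in 77.9% of tiles in other windows.

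The largest difference at 168 h among called high-2i tiles was at chr10:11211501-11212000. It read 86.2% and 79.0% in UHRF1 WT and 36.2% and 31.3% in KO (adjusted p = 5.51e-05). The tile chr13:50000501-50001000 read 90.4% and 100% in WT and 48.4% and 49.2% in KO (adjusted p = 0.0054). The tile chr7:12159501-12160000 read 97.4% and 94.6% in WT and 62.2% and 52.2% in KO (adjusted p = 0.00173). In serum the KO samples of these 3 tiles were between 79.2% and 97.4%. These tiles were ranked on the difference that the fit tested, so the choice favours large differences.

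In TET TKO the mean of the high-2i tiles was above TET WT in serum and closer to it in 2i. In the TET lines 510 tiles lay in 459 high-2i windows, and 444 were methylated in TET WT serum. Here, too, the choice favours WT in serum. Their mean in TET WT was 80.6% and 80.6% in serum, 79.2% and 78.7% after 48 h, 70.6% and 70.1% after 96 h, and 60.8% in the single sample at 168 h. In TET TKO it was 86.9% and 87.1% in serum, 80.6% and 80.7% after 48 h, 71.3% and 70.2% after 96 h, and 64.7% and 62.8% after 168 h. The TKO samples were above the WT samples in serum, by 6.42 points, after 48 h by 1.67 points and after 168 h by 2.94 points. At 96 h they overlapped, with a difference of 0.431 ± 0.859 points. As a mean over the 4 times the difference was 2.86 points, and 0.852 points with 50 or more calls per tile.

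In the 3589 methylated tiles of other windows the difference of TKO minus WT was larger. The gap between high-2i and other tiles was 10.4 points in TET WT serum and 2.74 points in TKO serum. At 168 h it was 24.8 points in WT and 11.4 ± 0.531 in TKO. It was smaller in every TKO sample than in every WT sample at each of the 4 times. The gap still grew with time in TKO, by 8.70 ± 0.538 points from serum to 168 h, where high-2i tiles stood at 73.3% of their serum level and the others at 62.1%. In WT these values were 75.5% and 51.3%.

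At 168 h TET WT is a single sample, assumed in the fit to vary like the other groups, so the calls at that time have no replicate check in WT. The fit over 39358 tiles called TKO higher than WT by 20 points or more at 168 h in 11.8% of all tiles and 72 high-2i tiles (14.1%). Among methylated tiles the background was 36.4%, and the call was made in 64 of 444 high-2i tiles (14.4%) and 1330 of 3589 others (37.1%). At 96 h the call was made in 8.84% of all tiles and 48 high-2i tiles (9.41%). Among methylated tiles it was made in 17.8%, in 36 high-2i tiles (8.11%) and in 627 others (17.5%). At 168 h the median difference was -0.04 points in high-2i tiles (quartiles -8.26 and 12.6), of which 220 were above 0 and 223 below, and 16.7 points in the others. Calls of TKO lower by 20 points or more were fewer. They were made at 168 h in 12 high-2i tiles (2.35%), beside 0.137% of all tiles, and at 96 h in 8 (1.57%), beside 0.208%. For calls of TKO higher, the order of the high-2i share against that of all tiles depended on the fit. All tiles include many unmethylated ones, and the alternatives that follow are given only beside all tiles. With 50 or more calls per tile, 7 of 95 high-2i tiles were called higher at 168 h (7.37%), beside 2.55% of all tiles, and 5 at 96 h (5.26%), beside 2.26%. Without TET TKO replicate 1 the share of high-2i tiles called was 5.10% beside 6.25% of all tiles at 168 h, and 1.96% beside 4.29% at 96 h. Without TET WT replicate 1 it was 5.10% beside 6.70% at 96 h. Limma on log2 ratios called 4.51% of high-2i tiles beside 7.22% of all tiles at 168 h, and 4.90% beside 6.92% at 96 h. With only the samples compared no tile passed the adjusted threshold at either time. At an unadjusted p under 0.05, 55 high-2i tiles (10.8%) passed at 168 h, beside 9.86% of all tiles, and 38 (7.45%) at 96 h, beside 8.02%.

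A few high-2i tiles were much higher in TKO at 168 h, and all 3 named were also higher in TKO in serum. The tile chr15:6640501-6641000 read 78.7% and 81.4% in TET WT serum and 95.5% and 93.8% in TKO serum. At 168 h it stood at 7.87% in WT and at 63.4% and 64.8% in TKO. The tile chr1:90695001-90695500 read 35.6% and 44.7% in WT serum and 94.3% and 83.3% in TKO serum. At 168 h it read 4.17% in WT and 61.9% and 52.3% in TKO. The third, on chromosome 18, was at 58.0% and 51.4% in WT serum and at 95% and 83.3% in TKO serum. At 168 h it was at 0% in WT and at 56.7% and 50.0% in TKO. These are the extremes of a ranking, and each comparison at 168 h rests on 1 WT sample.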

How the data were processed

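The authors deposited the bisulfite data as counts of methylated and unmethylated calls at each cytosine, with the percent they give. Per the submitters' processing notes, the tools included Trim Galore 0.3.5, Bowtie2 and Bismark 0.12.3. The sources used here do not say whether copies of 1 molecule were removed, so intervals cover counting error only. Positions past the end of chromosome 1 in GRCm38 place the files on NCBIM37. RNA-seq and ChIP-seq tables lie on GRCm38 and were not used here, nor was UHRF1 WT serum replicate 2, whose file held 6 positions. The usable files were 8 of ChIP-BS and 50 of RRBS, and no column of other samples was left unused (0).

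From the counts, window levels were percent methylated of all calls after removal, in each library, of positions with over 20 calls. Windows (10 kb, 20 or more calls in all libraries) and tiles (500 bp, 20 or more calls and 3 or more positions in every sample of a set) were tested with a quasi-binomial fit over all groups of their table. It used Pearson dispersions moderated by limma 3.58.1 (R 4.3.3), not below 1, a quasi-likelihood F test and Benjamini-Hochberg adjustment over the whole table, with calls at an adjusted p under 0.05 and 20 points or more. Bound against input had no minimum difference. The script was tested on simulated data. A group of 1 sample takes its spread from the other groups. Means over tiles of high-2i windows are given as levels and differences with their SD and no test. Windows and tiles were named by rank: longest runs, highest input and lowest bound level, highest and lowest tiles at 168 h, and largest called genotype differences. The windows and comparisons were chosen with earlier results of these data known.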

Additional observations from a re-analysis of the deposited data

How the results depend on the processing

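Of 181 recomputed values, 111 stayed within their limit. The limit is 1.5 times for counts and shares of calls and 1 SD between replicates for levels and differences. Some of the 111 could not move, because the library left out does not enter the value, such as bound 2i levels without a serum library. The call that bound DNA fell from serum to 2i in high-2i windows held under all 10 alternatives. At a threshold of 50% there were 12232 windows and at 60% there were 2538. At these thresholds bound 2i levels were 52.7% and 59.8%, serum input levels 82.3% and 84.9%, bound shares in 2i 54.4% and 49.9%, and bound shares in serum 48.7% and 40.6%. With 40 or more calls, bound 2i was 56.4% and the 2i share 52.9%. With the mean of the percents of positions, bound 2i was 56.4% and the shares were 53.4% in 2i and 45.1% in serum, and with no positions removed 53.5% and 45.5%. Removal of positions with over 20 calls in any library kept 5536 of the 5562 windows. In all 15 alternatives the serum share of high-2i windows stayed below that of the other windows, though leaving out a bound 2i library could not change it.

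Of the high-2i features tested, limma on log2 ratios called 0.342% for bound against input in serum (0.546% of all windows), 3.12% (168 h) and 10.2% (96 h) for UHRF1, and 4.51% (168 h) and 4.90% (96 h) for TET. A minimum difference of 20 points left 0.324% for bound against input, beside 1.53% of all windows. Without one, 78.3% of the high-2i E14 tiles were called beside 60.6% of all tiles, which turns their order, as 50 or more calls do (27.5% beside 18.6%) and the fit without E14 168 h replicate 2 (38.1% beside 37.9%). With 50 or more calls, UHRF1 at 96 h had 20% called (0.517% of all tiles), TET 7.37% at 168 h (2.55%) and 5.26% at 96 h (2.26%). With only the groups compared, 0 tiles passed in UHRF1 and TET at both times, where few samples are left to estimate the spread.

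Gaps are high-2i minus other tiles, and genotype differences are means over the times. The E14 gap grew by 18.6 points with 50 or more calls, 17.8 with pooled calls, 3.47 over all tiles and 13.8 for windows of 50% or more. UHRF1 KO minus WT in high-2i tiles, -18.2 points, became -17.0, -17.4, -12.5 and -16.7 in the same order. In the gap it was -1.14 points, with opposite signs at early and late times, and became -0.306 with pooled calls, -10.1 over all tiles and 0.677 for windows of 50% or more, a reversal. TET TKO minus WT in high-2i tiles, 2.86 points, became 0.852 with 50 or more calls, 3.47 over all tiles and 4.50 for windows of 50% or more. In the gap, -9.22 points, it became -11.6, -9.42, -4.12 and -8.11 in the order first given. Where no construction shows it, the cause was not tested.

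Leaving out 1 replicate gave 7658 to 8326 windows (when an input 2i library was left out), 52.9% to 56.2% in bound 2i, 82.3% to 84.0% in serum input, shares of 52.5% to 54.5% in 2i and 44.4% to 48.7% in serum. Called shares ran from 82.9% to 84.3% for the fall in bound DNA, 0.252% to 1.06% for bound against input, 36.1% to 38.1% in E14, 1.56% to 18.0% and 51.6% to 57.8% in UHRF1 at 168 and 96 h, and 5.10% to 14.1% and 1.96% to 6.86% in TET. The E14 growth ran from 17.1 to 17.6 points, UHRF1 differences from -22.1 to -17.8 and, in the gap, -3.19 to -0.687, and TET differences from 2.88 to 3.07 and -9.25 to -7.70. Without replicate 1 the UHRF1 means (-22.1 and -3.19) leave out serum, where WT has no other usable sample. The TET means (2.88 and -7.70) then leave out 168 h for the same reason. These values thus average fewer times. No pairing of samples by replicate number was visible: deviations of same-numbered samples correlated at -0.0248 to 0.0329 in the tile sets and -0.0055 to 0.00343 in the windows. Deviations of single tiles and windows were mostly counting error, with median dispersions of 1.02 to 1.40. A shared preparation of same-numbered samples could therefore be missed by this check. With the replicate block, 86.4% of high-2i windows fell in bound DNA, and UHRF1 calls were 18.8% at 168 h and 59.4% at 96 h. The block moved the counts of high-2i calls from 77 to 76 in UHRF1 at 96 h, from 72 to 74 and 48 to 47 in TET at 168 and 96 h, and from 59 to 56 for bound against input. Depth limits single windows to about 10 points.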
